A study of Rattus norvegicus with 6 samples.

Results

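Genes of the cell division cycle were examined in ovaries of female Wistar rats collected on postnatal day (PND) 7. Pups had been injected intraperitoneally on PNDs 3 and 5 with 0.05 mg/kg of lipopolysaccharide from Salmonella enterica (LPS), a component of the bacterial outer membrane that is recognised by Toll-like receptor 4, or with an equal volume of saline. Whole-ovary RNA was hybridised to 6 single-colour Agilent arrays, 3 for LPS and 3 for saline, and no group carried a transgene or other allele. The members were the genes named Pcna, Aurka, Aurkb, Plk1 or Bub1, or whose symbol begins with the letters of the A, B, D and E cyclins, Cdk, Cdkn, Mcm or Cdc followed by a number, with Cdkn1c left out. Mki67 and Top2a were also sought, but no probe matched either name. This rule found 83 genes of the 26903 on the arrays, and each gene was read from its brightest probe. The 26903 include transcripts without a gene symbol, each counted as a gene under its accession here and in every share of all genes below. Of the 83, 78 were well above background on each of the 6 arrays by the flag of the scanner software, and these are called bright below. Cdc14b did so on the 3 LPS arrays and 1 saline array, and Cdkn3, Cdk11b, Cdk5r1 and Cdc27 on none. A further 13 genes sought by name had no matched probe, including Mcm5, Mcm9, Cdc25c, Cdk3, Cdk7 and Ccnb3, and were not measured here.

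Cyclins are the regulatory subunits that activate cyclin-dependent kinases (Cdks) at successive steps of the cycle. D and E cyclins drive cells out of G1, cyclin A acts through S phase and cyclin B with Cdk1 drives mitosis, while Cdkn proteins hold the kinases inactive. Mcm proteins form the helicase that is loaded at replication origins and unwinds DNA, and the Cdc genes, named after yeast division mutants, act in origin firing, in phosphatase control of the Cdks, in the anaphase-promoting complex, or outside the cycle. In the first week after birth the rat ovary holds oocytes arrested in meiosis, and the dividing cells are mainly the pregranulosa, granulosa and stromal cells around them. In whole ovaries, fewer cells of a type and less RNA per cell cannot be told apart.

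Values throughout are log2 processed signals minus the 75th percentile of the probes of the same array, so 0 marks that percentile and a negative value a dimmer probe. Differences are LPS minus saline, as log2 fold changes with their standard error (SE) from limma, n = 3 arrays per treatment. Probes differ in brightness for the same amount of RNA, so no gene's level is compared with another's. The 75th percentile signal of the 6 arrays ran from 2824 to 6754, no spot was saturated, and between 66.3% and 76.0% of spots were well above background. Saline replicates 2 and 3 stood apart from the other arrays. The median of 7 adrenal medulla markers was 3.19 and 2.44 on these arrays and between -4.61 and -2.90 on the other 4, and that of 8 adrenal cortex markers was 2.93 and 2.94 against -5.69 to -3.90. Differences of the members called higher, and of some others, are therefore also given without them. Ovarian identity was present on all arrays, with all 9 measured oocyte markers and 7 of 9 granulosa cell markers well above background throughout.

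No member reached an adjusted p under 0.05 in limma (0 of 83), and neither did any gene on the arrays (percent of genes called, 0). At an unadjusted p under 0.05, 3 of the 78 members well above background on every array were higher in LPS-treated ovaries, namely Ccne2, Mcm8 and Ccnb2, against 1.5% of all 15887 such genes. Only Cdk5rap3 was lower, against 2.4% of these genes. Over all 83 members the counts were 3 higher and 4 lower, against 2.22% and 13.7% of all genes. The other 3 lower members, Cdkn3, Cdk11b and Cdk5r1, were among the dim probes named above, and no fold change is given for them. Dim probes as a whole were lower in LPS: of 6963 genes well above background on no array, 46.0% had an unadjusted p under 0.05 in that direction. A 2-fold difference together with an unadjusted p under 0.05 was seen in 0 of the 83 members, compared with 1.57% of all genes and 0.938% of those well above background on every array. With the replicate number as a block, Ccne2, Mcm8 and Ccnb2 stayed higher (against 2.67% of bright genes) and Cdk5rap3 no longer passed (0 of 78 lower, against 3.34%).

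The members nevertheless lay mostly on the LPS side of 0. Among the 78, 53 differences were positive (67.95%), compared with 52.8% of all genes of that brightness, and their median was 0.10 against 0.01. Over all 83 the median was 0.10, with 55 positive (66.27%), against a median of -0.04 and 44.2% positive for all genes. The differences of the 78 ran from -0.68 for Cdkn2a to 0.85 for Ccne2, and their median SE was 0.19. The 95% interval of the difference lay within 2-fold in either direction for 69 of them and within 1.5-fold for 26. Of the 78, LPS and saline arrays did not overlap for 10 that were higher and 5 that were lower, against 5.17% and 5.99% of all genes well above background. Over all 83 these counts were 10 and 8, against 4.67% and 18.2%. The 35 bright members in the groups of cyclins, cell cycle Cdks, genes named Mcm (Mcm8 and Mcm3ap included), origin firing, Cdc25, anaphase-promoting complex, and markers and mitotic kinases had a median of 0.15 with 31 positive, and the remaining 43 had a median of 0.01 with 22 positive. This split was not tested.

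**Figure D1:**
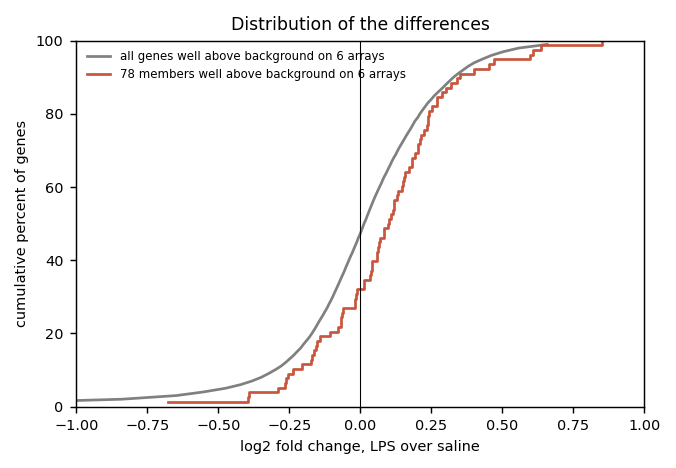
Cumulative percent of genes (vertical axis) by log2 fold change of LPS over saline (horizontal axis), for the 78 members well above background on 6 arrays (red) and all 15887 such genes (grey). The red line runs to the right of the grey one over most of the range, with medians of 0.10 and 0.01, and no member reaches 1.

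These values changed when the row of the arrays on the slide was put in the model, and the cause of that change was not tested. LPS replicates 2 and 3 lay in a different row of the slide from the other 4 arrays, so only LPS replicate 1 shared a row with saline. With the slide row in the model, which leaves LPS replicate 1 against the 3 saline arrays, the median over the 83 members was -0.01 (0.03 over all probes), and only Mcm8 kept an unadjusted p under 0.05. That was 1 member higher and 0 lower, against 6.79% and 0.624% of all genes. The row and the treatment cannot be told apart for LPS replicates 2 and 3. Without saline replicates 2 and 3, the 3 LPS arrays against saline replicate 1 gave a median of 0.03, while that of all probes was -0.15. In the main comparison the medians were 0.10 and -0.04. Without those arrays 6 members were higher and 0 lower at an unadjusted p under 0.05, against 2.31% and 3.17% of all genes. Both of these comparisons have an arm of 1 array, whose spread is assumed to be that of the other arm. In that comparison Ccne2 differed by 1.11, Mcm8 by 0.77 and Ccnb2 by 0.94.

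**Figure D2:**
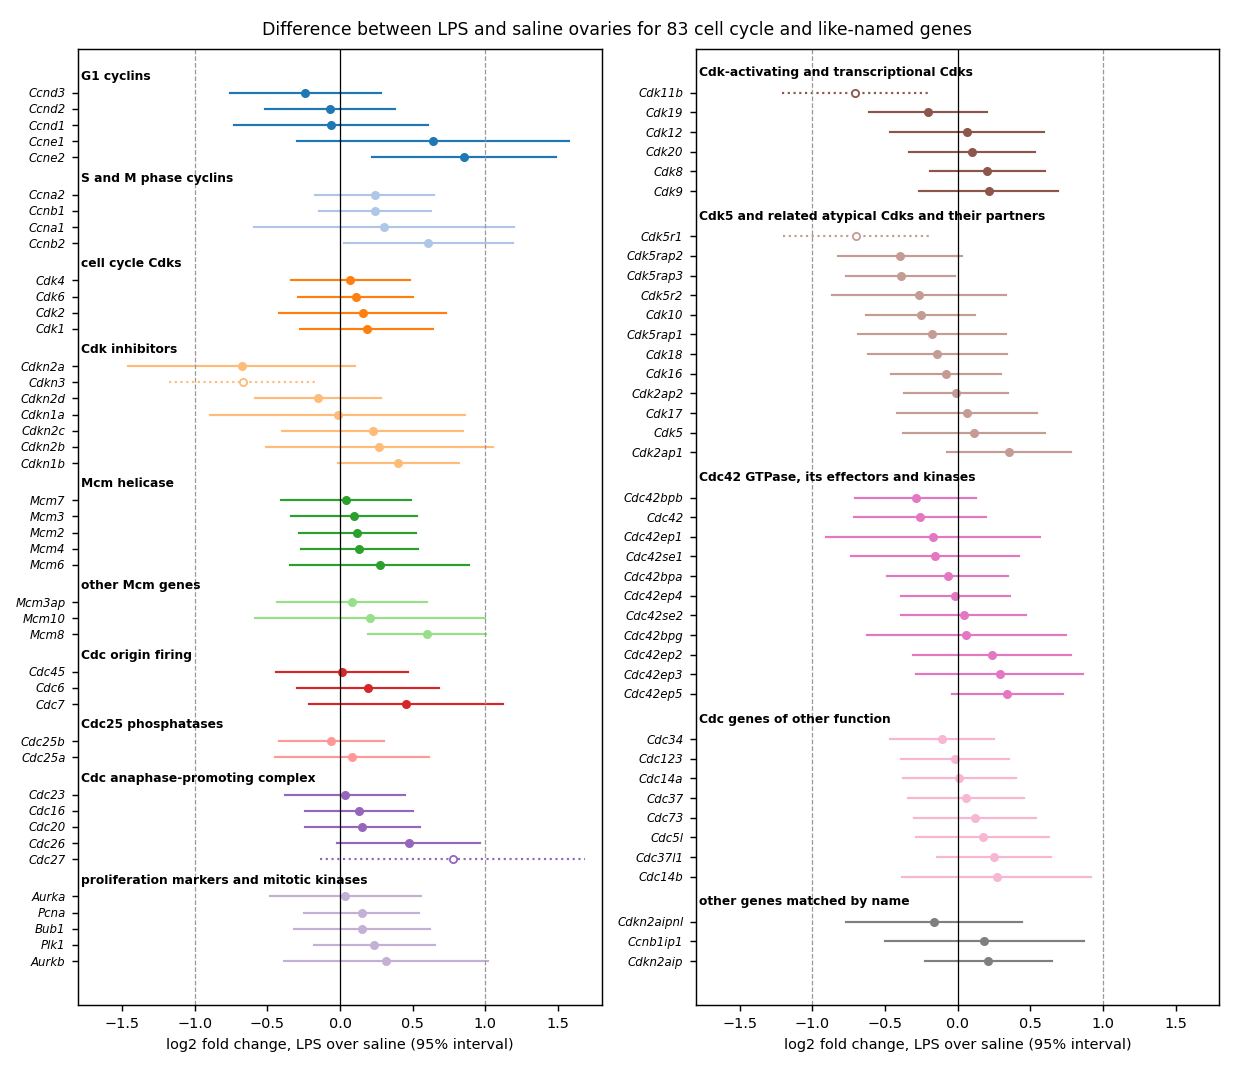
Log2 fold change of LPS over saline (horizontal axis) with its 95% interval for each of the 83 members, grouped by role. Open circles with dotted lines are the 4 members well above background on no array, and dashed lines mark 2-fold. The intervals of Ccne2, Mcm8 and Ccnb2 lie above 0 and that of Cdk5rap3 below, while most others include 0.

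The G1 cyclins were divided. Cyclin E2 (Ccne2), which activates Cdk2 at the start of DNA replication, had the largest difference of all members. Its values were -3.09, -3.06 and -2.38 on LPS arrays 1, 2 and 3, and -3.96, -3.72 and -3.41 on the saline arrays. Every LPS array was above every saline array, and the difference was 0.85 (SE 0.26), or 1.81-fold (unadjusted p = 0.0154, adjusted p = 0.271). It stayed between 0.62 and 0.997 whichever array was left out. Its signal was far below the 75th percentile of each array though well above background, and with the normexp background correction the difference was 0.30 (unadjusted p = 0.124 in limma). Cyclin E1 (Ccne1), its paralogue, was at 0.17, 0.45 and 0.41 on LPS arrays and -1.16, 0.40 and -0.13 on saline arrays. Here only saline replicate 1 was far below the rest, and the difference of 0.64 (SE 0.39) did not pass (unadjusted p = 0.149). It was 0.20 without saline replicate 1 and 0.99 without saline replicate 2 (limma unadjusted p = 0.416 and 0.0307). The D cyclins, which pair with Cdk4 and Cdk6 in response to growth factors, differed by -0.06 (Ccnd1), -0.07 (Ccnd2) and -0.24 (Ccnd3), with overlapping groups in each. For Ccnd1 the 95% interval was -0.73 to 0.61 and for Ccnd2 -0.52 to 0.38.

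All 4 measured cyclins of S and M phase had positive differences, with a median of 0.27. Cyclin B2 (Ccnb2), a mitotic partner of Cdk1, was at 1.04, 1.49 and 1.58 on LPS arrays and 0.43, 0.78 and 1.07 on saline arrays. LPS replicate 1 lay just below saline replicate 3, and the other 2 LPS arrays were above all saline arrays. The difference was 0.61 (SE 0.24), or 1.52-fold (unadjusted p = 0.0432, adjusted p = 0.292). This did not pass when LPS replicate 2, LPS replicate 3, saline replicate 1 or saline replicate 2 was left out (limma unadjusted p = 0.125, 0.123, 0.12 and 0.0862). Cyclin B1 (Ccnb1) was at 1.46, 1.71 and 1.72 on LPS arrays and 1.38, 1.39 and 1.40 on saline arrays. The groups were separate but the difference was small, 0.24 (SE 0.16, unadjusted p = 0.177). Cyclin A2 (Ccna2) had 2 probes with differences of 0.24 and 0.23, and its groups overlapped. Ccna1, the germ cell cyclin A, differed by 0.30 with an SE of 0.37.

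The Cdks that drive the cycle differed little. Cdk1, the mitotic kinase, was at 3.22, 3.16 and 3.12 on LPS arrays and 3.27, 2.93 and 2.75 on saline arrays, a difference of 0.18 (SE 0.19). Cdk2, Cdk4 and Cdk6 differed by 0.16, 0.07 and 0.11. The groups overlapped for all 4, no unadjusted p was under 0.05, and every 95% interval lay within 2-fold. Of the 6 measured transcriptional and Cdk-activating kinases, which act on RNA polymerase II or on other Cdks, 5 were well above background, and these lay between -0.21 (Cdk19) and 0.21 (Cdk9). Cdk19 had a dimmer probe that lay on the LPS side of 0 but was well above background on the LPS arrays alone. Neither Cdk19 probe passed (limma unadjusted p = 0.268 for the brightest and 0.0662 for the dimmer). The direction for Cdk19 is therefore unsettled.

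**Figure D3:**
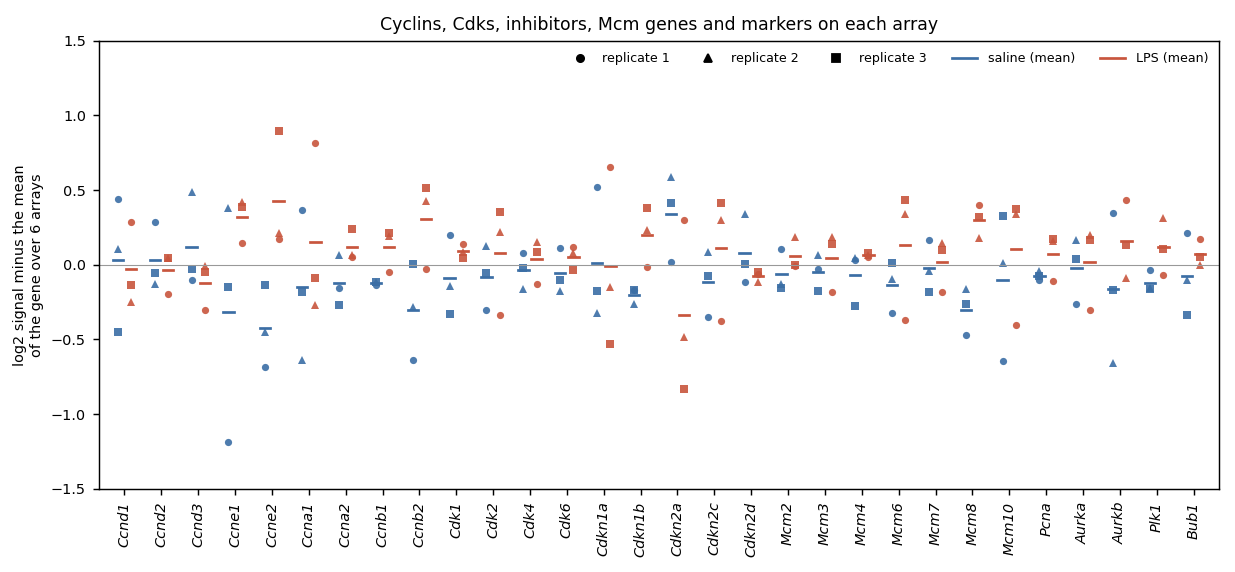
Log2 signal of 30 members on each array minus the mean of that gene over 6 arrays (vertical axis), for saline (blue) and LPS (red). Symbols give the replicate number and short lines the mean of each treatment. LPS and saline do not overlap for Ccne2, Mcm8, Ccnb1, Cdkn1b and Mcm4, and Cdkn1a and Ccna1 are high on replicate 1 of both treatments.

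The Mcm2 to Mcm7 helicase was measured through 5 of its 6 subunits. Their differences were 0.12 (Mcm2), 0.10 (Mcm3), 0.13 (Mcm4), 0.27 (Mcm6) and 0.04 (Mcm7), all positive and none with an unadjusted p under 0.05. The median of 0.12 became -0.13 with the slide row in the model. The brightest Mcm4 probe read 2.08, 2.10 and 2.11 on LPS arrays and 2.07, 2.08 and 1.76 on saline arrays. A second, much dimmer Mcm4 probe went the other way, at -2.83, -3.40 and -3.99 on LPS and -2.63, -2.71 and -2.68 on saline arrays, a difference of -0.74 (SE 0.30, unadjusted p = 0.0447). The direction for Mcm4 is therefore unsettled. The paired probes of Mcm2 (0.12 and 0.31) and Mcm3 (0.10 and 0.10) pointed the same way.

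Mcm8 was higher in LPS-treated ovaries under every setting tried. It encodes a helicase of the same fold that acts with Mcm9 in homologous recombination rather than in origin licensing, and its loss in humans and mice is known to cause ovarian failure. Its values were -1.91, -2.13 and -1.99 on LPS arrays and -2.78, -2.47 and -2.58 on saline arrays. The lowest LPS array was above the highest saline array, and the difference was 0.60 (SE 0.17), or 1.51-fold (unadjusted p = 0.0107, adjusted p = 0.271). It had an unadjusted p under 0.05 under each of the 20 alternatives tried, of which 2, the slide row and the fit without saline replicates 2 and 3, rest on an arm of 1 array. Its differences ran from 0.29 without background correction to 0.97 without scaling between arrays, a setting that moved the median of all probes to 0.34. With the slide row in the model the difference was 0.70. Mcm10, which helps to activate the loaded helicase, differed by 0.21 (SE 0.33), and Mcm3ap, an mRNA export factor named for its binding to Mcm3, by 0.08.

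Origin firing factors had positive differences of varied size. Cdc6, which loads the helicase, differed by 0.19 (SE 0.20), Cdc45, a part of the active helicase, by 0.01 (SE 0.19), and Cdc7, the kinase that triggers firing, by 0.45 (SE 0.28, 95% interval -0.21 to 1.12). Without LPS replicate 1 the difference for Cdc7 was 0.67 (limma unadjusted p = 0.0416). With all arrays none passed an unadjusted p under 0.05, and the LPS and saline arrays overlapped for each. The Cdc25 phosphatases, which remove inhibitory phosphates from Cdks, differed by 0.08 (Cdc25a) and -0.06 (Cdc25b). A second, dimmer Cdc25b probe, also well above background on every array, differed by 0.28 (SE 0.18, limma unadjusted p = 0.161). The direction for Cdc25b is therefore unsettled.

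All 4 bright members of the anaphase-promoting complex and its activator had positive differences. Cdc26, a small subunit of the complex, was at 0.51, 0.33 and 0.46 on LPS arrays and -0.39, 0.17 and 0.10 on saline arrays. The groups were separate, with saline replicate 1 the lowest, and the difference was 0.47 (SE 0.20, unadjusted p = 0.057). Without saline replicate 1 it was 0.30, and without saline replicate 2 it was 0.58 (limma unadjusted p = 0.14 and 0.049). Cdc20, the activator that starts anaphase, differed by 0.15, Cdc16 by 0.13 and Cdc23 by 0.03.

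The proliferation marker Pcna, the clamp that holds DNA polymerase on its template, was at 1.68, 1.95 and 1.96 on LPS arrays and 1.69, 1.75 and 1.72 on saline arrays. LPS replicate 1 was the lowest of the 6 arrays and the other 2 LPS arrays the highest, and the difference was 0.15 (SE 0.16) with a 95% interval of -0.24 to 0.54. The mitotic kinases Plk1, Aurka, Aurkb and Bub1 differed by 0.24, 0.04, 0.32 and 0.15, each with overlapping groups and no unadjusted p under 0.05.

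Inhibitors of the Cdks had differences of both signs. Cdkn1b (p27), which holds Cdk2 inactive in resting cells and is known to restrain the activation of primordial follicles, was at 1.14, 1.39 and 1.54 on LPS arrays and 0.98, 0.90 and 0.99 on saline arrays. All LPS arrays were above all saline arrays, with a difference of 0.40 (SE 0.17, unadjusted p = 0.0572). The value was 0.51 without LPS replicate 1 (limma unadjusted p = 0.0312) and 0.31 to 0.415 without any other array (p from 0.0849 to 0.167). With the slide row in the model it was 0.185 (limma unadjusted p = 0.452). Cdkn2a, the gene of p16 and p19Arf, was at -2.23, -3.02 and -3.36 on LPS arrays and -2.51, -1.95 and -2.12 on saline arrays. LPS replicates 2 and 3 were lowest, LPS replicate 1 lay among the saline arrays, and the difference of -0.68 (SE 0.33) did not pass (unadjusted p = 0.0789). Without LPS replicate 1 it was -0.996 (limma unadjusted p = 0.00687), and with the slide row in the model it was -0.04. Without saline replicates 2 and 3 the Cdkn2a difference was -0.355. Cdkn2b, Cdkn2c and Cdkn2d, the other INK4 inhibitors of Cdk4 and Cdk6, differed by 0.27, 0.23 and -0.15 with overlapping groups. Cdkn1a (p21), an inhibitor induced by DNA damage, differed by -0.02 with an SE of 0.37.

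Other members share a name with the cycle but mostly act elsewhere. Of the 11 bright genes of Cdk5, related atypical Cdks and their partners, 3 had positive differences. Cdk5rap3, a partner of the UFM1 ligase, was at 1.30, 1.28 and 1.42 on LPS arrays and 1.68, 1.83 and 1.67 on saline arrays. Every LPS array was below every saline array, and the difference was -0.39 (SE 0.16, unadjusted p = 0.0419, adjusted p = 0.29). It did not pass when any array was left out (limma unadjusted p from 0.0564 to 0.139), with median scaling (0.0549), with the slide row (0.121), without saline replicates 2 and 3 (0.224) or with the replicate number as a block (0.0515). Without scaling between arrays the difference was -0.02, below the shift of all probes. Cdk5rap2, a centrosome protein, had 2 probes with differences of -0.39 and -0.38 (unadjusted p = 0.0643 and 0.0848). Cdk2ap1, a Cdk2-binding protein, was higher on every LPS array, by 0.35 (SE 0.18). Cdc42, the small GTPase of cell polarity, with its effectors and kinases (11 genes), ranged from -0.29 (Cdc42bpb) to 0.34 (Cdc42ep5), and the Cdc genes of other function (8 genes) from -0.11 (Cdc34) to 0.27 (Cdc14b).

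Promoter sequence was examined because genes of S phase and mitosis are known to share promoter elements. E2F factors drive genes of DNA replication, whereas the CCAAT box bound by NF-Y and the CHR element are found in promoters of mitotic genes. Promoter windows of 300 bases, 250 before and 50 after the gene start, were taken from RefSeq on the GRCr8 build and matched 69 of the 83 members. Both strands were searched for letters of the E2F type, which were TTCCCGC as well as its variants with other central bases, namely TTGGCGC and also TTCGCGC and finally TTGCCGC. The letters CCAAT and those of the CHR element, which are TTTGAA, were searched in the same way, and matches may overlap. E2F-type letters were present in 22 members (31.9%), against 9.5% of all 33469 windows. Each member had a single window, whereas the whole set was not reduced to a single window per gene or limited to genes measured here. The shares are therefore not on equal terms. E2F-type letters were present in 11 of the 26 matched members of the groups from cyclins to mitotic kinases given above. Among the 43 matched members outside those groups, 11 held them too. CCAAT was present in 50.7% of members against 37.5% of all windows, and TTTGAA in 17.4% against 18.3%. Bright members with E2F-type letters had a median difference of 0.09 and those without 0.07. The corresponding medians were 0.09 and 0.06 for CCAAT, and 0.15 (11 genes) and 0.06 for TTTGAA. A match shows only that the letters occur in the window.

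The windows of 5 members are shown 5′ to 3′ on the strand of the gene, with matched letters in capitals. Mcm8 and Ccnb2 were higher at an unadjusted p, Ccnb1 and Cdk1 form the mitotic kinase, and Mcm2 stands for the replicative helicase. Ccne2, the other member called higher, had no matched window. They lie on GRCr8 at chr3:140539397-140539696 (Mcm8), chr8:79981609-79981908 (Ccnb2), chr2:33655176-33655475 (Ccnb1), chr20:19265043-19265342 (Cdk1) and chr4:122918045-122918344 (Mcm2). Mcm8 and Cdk1 lie on the plus strand and the others on the minus strand.
Mcm8: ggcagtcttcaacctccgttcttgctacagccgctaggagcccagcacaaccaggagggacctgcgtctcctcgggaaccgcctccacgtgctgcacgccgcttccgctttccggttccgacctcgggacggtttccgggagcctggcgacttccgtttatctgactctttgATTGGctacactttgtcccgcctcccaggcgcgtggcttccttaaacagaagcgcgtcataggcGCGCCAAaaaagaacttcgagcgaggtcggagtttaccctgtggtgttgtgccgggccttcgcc
Ccnb2: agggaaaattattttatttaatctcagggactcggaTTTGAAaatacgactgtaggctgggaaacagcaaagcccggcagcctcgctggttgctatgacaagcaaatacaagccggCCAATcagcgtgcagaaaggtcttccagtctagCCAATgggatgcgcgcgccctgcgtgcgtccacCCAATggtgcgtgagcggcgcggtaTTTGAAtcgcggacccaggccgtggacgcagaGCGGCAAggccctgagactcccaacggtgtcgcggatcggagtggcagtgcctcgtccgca
Ccnb1: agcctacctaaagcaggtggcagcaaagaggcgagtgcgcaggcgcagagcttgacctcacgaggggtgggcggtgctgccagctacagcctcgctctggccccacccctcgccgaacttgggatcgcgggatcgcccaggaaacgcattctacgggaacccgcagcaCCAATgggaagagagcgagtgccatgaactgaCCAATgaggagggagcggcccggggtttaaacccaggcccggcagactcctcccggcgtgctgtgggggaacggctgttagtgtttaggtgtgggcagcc
Cdk1: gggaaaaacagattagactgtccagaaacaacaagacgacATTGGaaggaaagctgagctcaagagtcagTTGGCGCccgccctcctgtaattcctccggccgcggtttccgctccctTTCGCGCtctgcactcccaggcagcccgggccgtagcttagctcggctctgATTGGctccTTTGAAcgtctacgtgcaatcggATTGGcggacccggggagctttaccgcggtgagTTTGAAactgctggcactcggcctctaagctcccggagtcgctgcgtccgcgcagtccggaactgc
Mcm2: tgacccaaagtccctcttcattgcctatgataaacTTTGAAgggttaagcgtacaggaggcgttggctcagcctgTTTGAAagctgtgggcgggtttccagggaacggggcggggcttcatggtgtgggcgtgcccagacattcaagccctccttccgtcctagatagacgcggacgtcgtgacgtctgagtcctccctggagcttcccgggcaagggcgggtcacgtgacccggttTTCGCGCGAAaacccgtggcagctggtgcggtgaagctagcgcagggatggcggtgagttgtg
Ccnb2 held 3 CCAAT boxes, 2 TTTGAA matches and 1 E2F-type match, Ccnb1 held 2 CCAAT boxes alone, and Cdk1 held 3, 2 and 2 matches of the respective kinds. In Mcm8 an E2F-type match was centred 11 bases before the gene start and a CCAAT match 76 bases before it. Mcm2 held overlapping E2F-type matches close to the start and no CCAAT.

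Arrays of the same treatment also differed among themselves. The mean of replicates 2 and 3 minus replicate 1 had a median size of 0.28 over the 78 members in saline and 0.26 in LPS, while the treatment difference had a median size of 0.17. The first compares a mean of 2 arrays with a single array and the second means of 3, so the sizes are not on equal terms. For 56 members (71.8%) it went the same way in both treatments, close to the 71.7% of all bright genes. In 4 members it exceeded 0.5 in both, namely Cdkn1a, Ccna1, Mcm10 and Cdc42ep1, which is 5.13% of members against 13.9% of all bright genes. Cdkn1a was at 5.04, 4.24 and 3.86 on LPS arrays 1, 2 and 3 and 4.91, 4.07 and 4.21 on saline arrays, so replicate 1 was highest in each treatment. Its second probe showed the same order of replicate 1 over the others, with 1.72, 1.14 and 0.75 on LPS arrays and 1.78, 1.29 and 1.23 on saline arrays. Ccna1 followed, at -0.37, -1.46 and -1.28 on LPS arrays and -0.82, -1.82 and -1.37 on saline arrays. Mcm10 did the opposite, at -2.23, -1.49 and -1.46 on LPS arrays and -2.48, -1.82 and -1.503 on saline arrays. Replicate 1 was lowest in Mcm10 in both treatments.

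**Figure D4:**
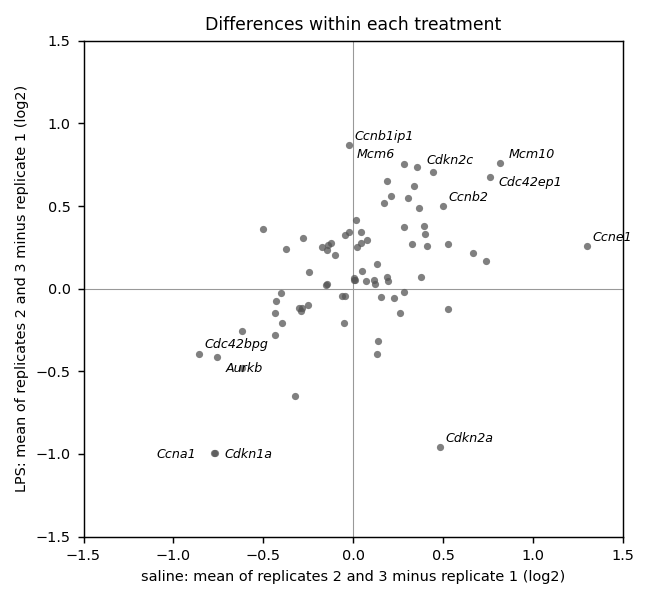
Mean of replicates 2 and 3 minus replicate 1, in log2 units, in saline (horizontal axis) and LPS (vertical axis) for the 78 bright members, each a point. Cdkn1a and Ccna1 are low in both treatments, at -0.77 and -0.99 for Cdkn1a, and Mcm10 and Cdc42ep1 are high in both.

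Markers of other cell types also differed between arrays, and those of epithelium were highest on replicate 1 of both treatments. The median of 4 oviduct and surface epithelium markers was 3.57 on LPS replicate 1 and 3.49 on saline replicate 1, against 2.06 to 2.59 on the other 4 arrays. The median of 9 oocyte markers was -1.64 on LPS replicate 1 and -0.27 and -0.45 on LPS replicates 2 and 3, against -1.25, -1.34 and -0.68 on the saline arrays. The median of 8 macrophage markers was -1.66 to -1.51 in LPS and -2.21 to -1.92 in saline. For 3 of the 8 (Csf1r, Adgre1 and Mrc1) the groups did not overlap with LPS higher, against 4.67% of all genes. These 3 also had an unadjusted p under 0.05 in limma, against 2.22% of all genes in that direction. Mrc1 was well above background on the LPS arrays alone, so its detection rests on the group where it is high. Cd68 and Cd163 had differences of -0.16 each. The part of these cell types in the values of the cell cycle genes was not tested. On saline replicates 2 and 3, where adrenal markers were high, the median of the 78 members was 0.55 and 0.47, beside 0.45 to 0.54 on the other 4 arrays. Such a median over genes of differing level, on scaled arrays, can hide changes of single members. The mean of saline replicates 2 and 3 minus replicate 1 was 1.30 for Ccne1 and -0.77 for Cdkn1a. In LPS, where adrenal markers were low on every array, the same contrast was 0.26 for Ccne1 and -0.99 for Cdkn1a.

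**Figure D5:**
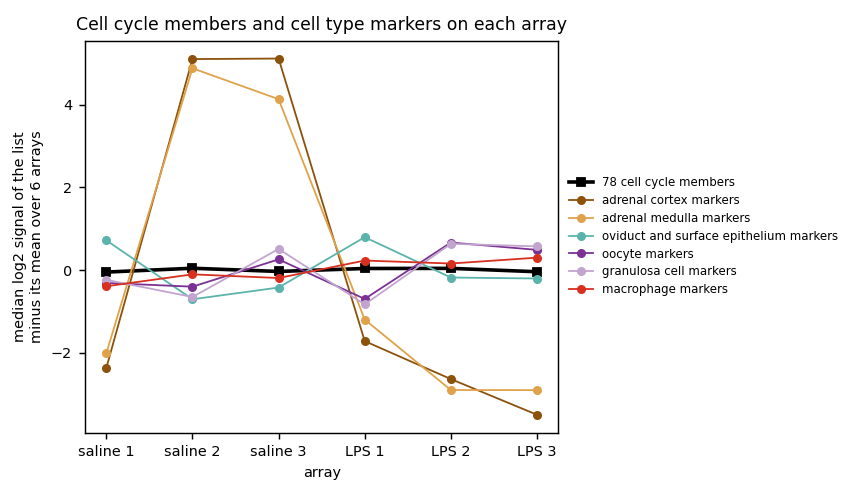
Median log2 signal of each list minus its mean over 6 arrays (vertical axis) on each array (horizontal axis), for the 78 bright members (black squares) and the markers of 6 cell types. Adrenal markers are high on saline 2 and saline 3 alone, and the members' median stays between 0.45 and 0.55 on its own scale.

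Other genes of the same processes were counted from lists of genes outside the members. Among replication genes outside the members 32 of 35 were measured, 27 had positive differences and the median was 0.23. At an unadjusted p under 0.05, 4 were higher and 1, Gins3, was lower on a probe above background on no array. In this and the next lists these counts stand against 2.22% of all genes higher and 13.7% lower. Among the 4, and named after their values were seen, were Rrm1 (0.83, SE 0.26), the large subunit of ribonucleotide reductase, Pole (0.70, SE 0.23), the leading-strand polymerase, and Orc5 (0.88, SE 0.34), an origin recognition subunit that was well above background on 1 saline array. Among mitosis genes 32 of 40 were measured, 29 had positive differences and the median was 0.17. Mad2l1 (0.57, SE 0.17), of the spindle checkpoint, and Cdca8 (1.17, SE 0.28), of the chromosomal passenger complex, were higher at an unadjusted p under 0.05, with Cdca8 well above background on 1 saline array. The 2 lower ones, Hmmr and Smc2, were above background on no array. Of 29 genes of the Rb, E2F and checkpoint list 22 were measured and 16 were positive, with a median of 0.12, 0 higher and 1 lower (E2f3, above background on no array). No gene of the 3 lists had an adjusted p under 0.05 in limma.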

How the data were processed

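The treatment and replicate number of each array came from the labels. The authors deposited, for each array, the intensity of every spot from Agilent Feature Extraction 10.5.1.1, and a table of the whole study equal to the processed signal within 0.497%. Background is already subtracted in that signal, and dim spots carry a surrogate value. The labels also name lumi, with no stated role. Their paper gives no normalization for the arrays. The log2 values were computed here from the deposited intensities: spots flagged as outliers were removed, spots of a probe were averaged, and the 75th percentile of each array was subtracted. limma 3.58.1 in R 4.3.3 (lmFit, eBayes) was fitted over 30367 probes with at least 2 unflagged arrays per group, with Benjamini-Hochberg adjustment over all probes. A count at an unadjusted p under 0.05 is not corrected for multiple tests. The procedure was tested on simulated data. Some genes of the lists are not reported here.

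The gene name column of the files was empty, so 17998 probes were named through their RefSeq accession (GRCr8, names only), which gave 15154 symbols. The other 12369 probes kept the systematic name of the file, and each such name was counted as a gene. Where a gene had several probes, the brightest was used. Named are the standard cyclins, Cdks, inhibitors, Mcm, Cdc and marker genes and the 10 members with the smallest p, with others only where a short count or a group's range turned on them. The members and lists were chosen with earlier results of these data known. Arrays with the same replicate number deviated together from their group means (correlations 0.298, 0.215 and 0.254 across probes), which is the sole basis of the pairing. The blocked fit is given where it changes a call. Whole litters were allocated to LPS or saline, so no litter held both treatments. Differences between litters are therefore part of the differences between treatments. Several animals from more than 1 litter contributed to each treatment, and which animals lie behind an array was not used, so p-values measure the spread between these arrays. The smallest p of an exact permutation test of 3 against 3 arrays is 0.1. The 20 alternatives covered background correction, scaling, flags, dim probes, the test, slide row, replicate block, probe choice and left-out arrays. There was 1 slide and 1 scan. The number of arrays limits the precision.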

Additional observations from a re-analysis of the deposited data

How the results depend on the processing

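No member had an adjusted p under 0.05 under any of the 20 alternatives. Shares at an unadjusted p under 0.05 were computed over all genes only for the slide row and without saline replicates 2 and 3. For the replicate block they were computed over bright genes alone. The other counts under the alternatives, including those of 2-fold or non-overlapping members, have no such share beside them. They therefore do not show whether members were called more or less often than other genes. Over the 83 members, no scaling between arrays gave 0 lower, 2 at least 2-fold, 6 not overlapping and a median of 0.471, with the median of all probes at 0.336. Quantile normalization gave 8 higher and 2 lower, normexp 2 lower, no background correction 7 higher and 2 lower, and a filter on dim probes (79 members left) 6 higher and 2 lower. With the methods' t-test 5 were higher and 7 were lower (none after adjustment), and limma with trend and robust settings 7 higher. Slide row as a block gave 1 higher, 0 lower and a median of -0.006. Without saline replicates 2 and 3 there were 6 higher, 0 lower, 3 at least 2-fold (Ccne1, Ccne2 and Cdc27) and 48 not overlapping, a count raised by the single saline array. Leaving out 1 array at a time gave 2 to 6 higher, 2 to 4 lower, 0 or 1 at least 2-fold (Cdc27, dim on every array), 20 to 41 not overlapping, where fewer arrays overlap less by construction, and medians of 0.064 to 0.144. The most calls came without LPS replicate 1 (6 higher) and without saline replicate 2 (5 higher), the fewest lower ones, 2, without LPS replicate 3 or saline replicate 2. With the replicate block the counts over the 83 members were 3 higher and 3 lower, without a share over all genes. The 3 lower (Cdkn3, Cdk11b and Cdk5r1) were dim on every array. The block changed no other member's call than that of Cdk5rap3. Ccne2 lost its unadjusted p under 0.05 with normexp, without background correction and with the slide row, and Ccnb2 with median scaling, the t-test, the slide row and 4 left-out arrays. The cause was not tested. Of 837 values of 42 named members under the alternatives, 41 lost and 30 gained an unadjusted p under 0.05, and 65 of members not called changed sign. Signal over background limits the 4 members dim on every array.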
